A study of Mus musculus with 18 samples.

Results

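Wdfy1 and 5 genes beside it on mouse chromosome 1, Ap1s3, Mrpl44, Serpine2, Cul3 and Scg2, were followed across all 18 libraries of a study of peritoneal macrophages. They are 6 of the 21831 genes in the deposited table and were taken by symbol. Wdfy1 was chosen by its measured level in these libraries, which was about 4-fold lower in one genotype under both agents, so its genotype difference is given as a description with no test. The other 5 genes were chosen for their position. Of the 6 genes, 5 passed the filter on low counts that left 13409 genes for testing, and Scg2 did not.

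Macrophages were drawn into the peritoneal cavity of 6-week-old C57BL/6 mice by 1 mL of 3% thioglycollate, an irritant, given 3 days before collection. After 4 h on plates the cells were kept for 12 h with DMSO alone or with 20 µM PCN dissolved in it, PCN being a steroid that activates the mouse xenobiotic receptor PXR. Every mouse lacked the LDL receptor. The genotype PXRF/FLDLR-/-, here FF, carries floxed PXR alleles and gave 3 libraries with DMSO and 3 with PCN, and the genotype PXRΔMyeLDLR-/-, here dMye, lacks PXR in myeloid cells and gave 6 with DMSO and 6 with PCN. The labels name neither the Cre line nor the C57BL/6 substrain, and do not say whether each library stands for its own animal or culture. The p-values therefore rest on a library-to-library spread that could be technical.

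WDFY1 carries WD40 repeats and a FYVE domain, a zinc finger that binds phosphatidylinositol 3-phosphate on early endosomes. In macrophages and other cells it is known as an adaptor that links the receptors TLR3 and TLR4 to TRIF, the adaptor protein encoded by Ticam1, which leads to interferon and inflammatory genes. The neighbours have unrelated roles. AP1S3 is a small subunit of the AP-1 clathrin adaptor, MRPL44 belongs to the large subunit of the mitochondrial ribosome, SERPINE2 inhibits thrombin and plasminogen activators, CUL3 is the scaffold of a family of ubiquitin ligases, and SCG2 is a secretory granule protein.

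In GENCODE's annotation of GRCm38, the assembly that mm10 names, Wdfy1 spans chr1:79702262-79776143 on the minus strand. Mrpl44 (chr1:79776018-79781445, plus strand) lies head to head with it, its start 125 bases inside the outermost start of Wdfy1, so that the 2 genes overlap at their starts. Ap1s3 (chr1:79606876-79671972), Serpine2 (chr1:79794197-79861180), Cul3 (chr1:80264923-80340480) and Scg2 (chr1:79434669-79440120) are all on the minus strand. The start of Ap1s3 lies 104171 bases from that of Wdfy1, that of Serpine2 85037 bases, that of Scg2 336023 bases and that of Cul3 564337 bases. Of 14 annotated Wdfy1 transcripts, 4 are full length with 12 exons and 4551 bases, and these 4 are 1 distinct sequence. They start 14374 bases inside the outermost start, which 1 transcript uses.

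The 4 full-length forms have the same sequence because coding exons 4, 5 and 6 each occur in 2 copies 7442 bases apart with 0 differences. They are shown because reads from these 319 bases, 7.01% of the transcript, cannot be assigned to either copy. The authors' treatment of such reads is not stated in the labels. The exons, read on the minus strand from GENCODE's transcripts with all letters in lower case, are as follows. Exon 4 lies at chr1:79729656-79729710 and again at chr1:79722214-79722268, exon 5 at chr1:79726566-79726716 and chr1:79719124-79719274, and exon 6 at chr1:79724645-79724757 and chr1:79717203-79717315.
Exon 4: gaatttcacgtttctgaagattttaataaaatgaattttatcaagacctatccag
Exon 5: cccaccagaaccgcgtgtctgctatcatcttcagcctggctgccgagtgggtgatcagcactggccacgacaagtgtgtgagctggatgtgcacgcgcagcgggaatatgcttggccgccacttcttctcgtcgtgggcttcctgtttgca
Exon 6: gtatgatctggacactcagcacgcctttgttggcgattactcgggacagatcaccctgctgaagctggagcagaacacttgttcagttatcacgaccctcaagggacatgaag

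**Figure D1:**
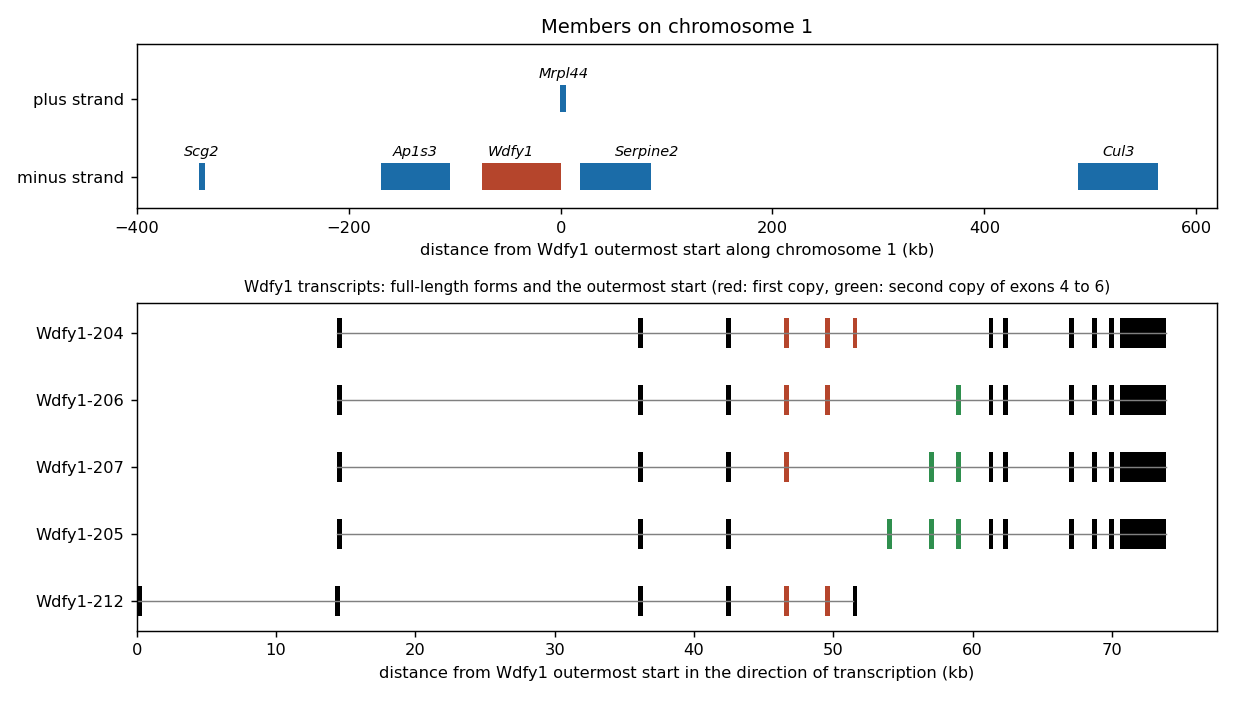
Top: the 6 genes by strand and distance in kb from the outermost start of Wdfy1. Bottom: the 4 full-length Wdfy1 transcripts and the transcript that uses the outermost start, with exons as blocks against distance in kb in the direction of transcription; red and green blocks are the first and second copies of exons 4 to 6, which the 4 full-length forms combine in different ways.

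The libraries held 21993697 to 30228017 expected counts. Along the first principal component, with 42% of the variance, the FF libraries lay from -52.1 to -40.7 and the dMye libraries from 18.5 to 28.3. Transcripts of Nr1i2, which encodes PXR, summed to 2, 1, 2 and 3 counts in FF with DMSO, FF with PCN, dMye with DMSO and dMye with PCN, so they check no label. The 10 macrophage markers were present in every group. In dMye 3 were higher and 2 lower with DMSO, and 7 higher and 1 lower with PCN, at an edgeR adjusted p under 0.05. By that rule 13.9% of all tested genes were higher and 7.85% lower with DMSO, and 16.2% and 11.4% with PCN. The lysozyme gene Lyz2 was at 7210 ± 314 CPM (counts scaled to a common library size) in FF with DMSO and 4040 ± 754 in dMye with DMSO, and the F4/80 gene Adgre1 at 126 ± 2.53 and 132 ± 6.35 (SD, n = 3 and 6). Libraries 5 and 6 of dMye with DMSO lay at opposite ends of that group on the next components, and values that turn on them are given where they arise.

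Wdfy1 was high in every FF library and low in every dMye library, under both agents. Levels are CPM after TMM scaling. In FF with DMSO the 3 libraries held 72.4, 76.0 and 74.2 CPM, and in FF with PCN 80.2, 82.4 and 86.2 CPM. In dMye with DMSO the 6 libraries ran from 14.7 through a median of 18.9 to 21.9 CPM, and in dMye with PCN from 17.2 through 21.2 to 22.8 CPM. The highest dMye library therefore lay far below the lowest FF library.

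The group means were 74.2 ± 1.80 and 82.9 ± 3.07 CPM in FF with DMSO and PCN (SD, n = 3 each), and 18.9 ± 2.52 and 20.6 ± 2.18 CPM in dMye (SD, n = 6 each). Fitted by edgeR over all 18 libraries, the difference of dMye from FF was -1.97 on the log2 scale (SE 0.09), 3.93-fold lower, with DMSO, and -2.01 (SE 0.09), 4.03-fold lower, with PCN. Larger fitted falls were seen in 23 genes with DMSO and 24 with PCN. With DMSO 4 of them were on chromosome Y, 2 on X and 1 on chromosome 1, and with PCN 4, 0 and 2. Among genes with an FF mean of at least 10 CPM these were the Y-linked Ddx3y, Eif2s3y and Uty with DMSO, and the same 3 and Gm10800 with PCN. All 12 dMye libraries lay below all 6 FF libraries for 1.62% of tested genes, 217 in number. Wdfy1, which was chosen for its lower level in dMye, is one of these.

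**Figure D2:**
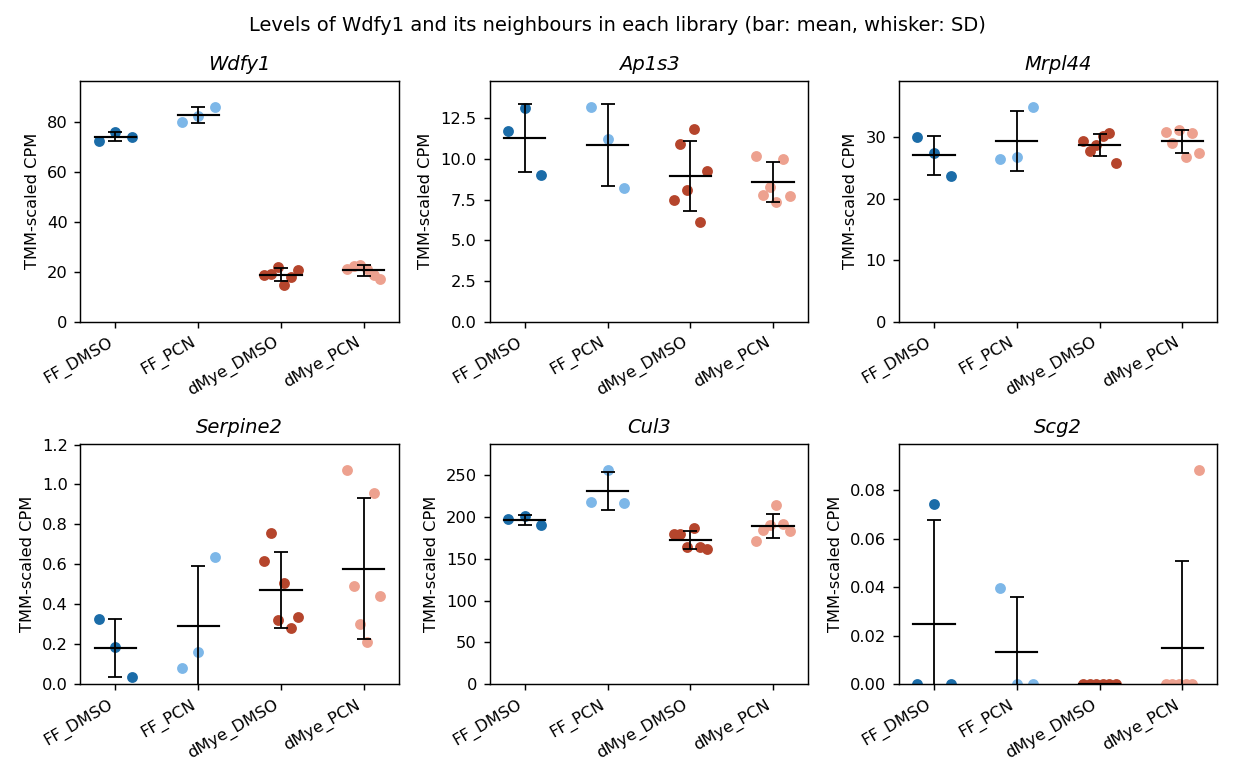
CPM after TMM scaling (vertical axis, from 0, a separate range for each gene) in each library of the 4 groups, with the mean as a bar and the SD as a whisker (cut off at 0). Wdfy1 separates the genotypes, with the dMye libraries between 14.7 and 22.8 CPM and the FF libraries between 72.4 and 86.2 CPM; Serpine2 and Scg2 lie near 0 in every library.

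PCN gave no called change of Wdfy1 in either genotype. The 3 FF libraries with PCN all lay above the 3 with DMSO, which was so, in the same direction, for 17.8% of tested genes. The fitted PCN difference was 0.16 on the log2 scale in FF (SE 0.10, edgeR adjusted p = 0.36) and 0.12 in dMye (SE 0.08, edgeR adjusted p = 0.50), where the groups overlapped. The PCN effect in dMye minus that in FF was -0.04 on the log2 scale (95% interval -0.29 to 0.22, edgeR adjusted p = 0.96).

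Mrpl44, whose start is nearest to that of Wdfy1, did not show the same drop. Its libraries held 29.9, 27.4 and 23.7 CPM in FF with DMSO and 26.4, 26.8 and 34.9 CPM in FF with PCN. The dMye libraries ran from 25.8 through a median of 29.0 to 30.7 CPM with DMSO and from 26.8 through 29.8 to 31.1 CPM with PCN. All 4 groups overlapped. The fitted genotype difference was 0.09 on the log2 scale with DMSO (95% interval -0.09 to 0.26, edgeR adjusted p = 0.51) and -0.00 with PCN (95% interval -0.18 to 0.17, edgeR adjusted p = 0.99). Both intervals lie far from the value of Wdfy1.

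The ratio of Wdfy1 to Mrpl44 expected counts within a library, which no scaling between libraries can alter, was 2.42 to 3.13 in FF with DMSO and 2.47 to 3.07 in FF with PCN. It was 0.489 to 0.809 in dMye with DMSO and 0.606 to 0.79 in dMye with PCN. The genotypes did not overlap in this ratio, which carries the same Wdfy1 values that chose the gene. Per kilobase of annotated exon, the level of Wdfy1 was 11.4 CPM in FF with DMSO and 2.91 in dMye with DMSO, beside 16.4 and 17.5 for Mrpl44. The length used for Wdfy1 was 6.488 kb, the joined exons of all its transcripts, while a full-length transcript has 4551 bases. The level of Wdfy1 relative to Mrpl44 depends on that choice of length.

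Ap1s3, on the other side of Wdfy1, was lower on average in dMye but overlapped in every comparison. It held 11.7, 13.2 and 9.04 CPM in FF with DMSO and 13.2, 11.2 and 8.20 CPM in FF with PCN. The dMye libraries ran from 6.12 through a median of 8.68 to 11.8 CPM with DMSO and from 7.38 through 8.03 to 10.2 CPM with PCN. The fitted genotype difference was -0.33 on the log2 scale with DMSO (95% interval -0.69 to 0.02, edgeR adjusted p = 0.20) and -0.35 with PCN (95% interval -0.70 to 0.01, edgeR adjusted p = 0.18). The PCN differences were -0.05 in FF (edgeR adjusted p = 0.91) and -0.07 in dMye (edgeR adjusted p = 0.88).

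Serpine2 was near the limit of counting, at 1 to 15 reads in an FF library and 5 to 31 in a dMye library. Its mean level was 0.183 ± 0.145 CPM in FF with DMSO and 0.293 ± 0.301 in FF with PCN (SD, n = 3 each), against 0.470 ± 0.189 and 0.579 ± 0.354 in dMye (SD, n = 6 each). The groups overlapped. The fitted difference of dMye from FF was 1.38 on the log2 scale with DMSO (SE 0.68, edgeR adjusted p = 0.15) and 1.00 with PCN (SE 0.63, edgeR adjusted p = 0.26). Without library 3 of FF with PCN, the highest of its group, the latter was 2.23 (edgeR adjusted p = 0.05, just past the threshold). Scg2 gave 2, 1, 0 and 2 reads in all in FF with DMSO, FF with PCN, dMye with DMSO and dMye with PCN, which is at or under a floor of 3 counts, so no fold is given.

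Cul3, the most abundant of the 6 genes per kilobase of exon, was the 1 neighbour of the 5 with called differences, and they were small. It held 198, 202 and 190 CPM in FF with DMSO and 218, 257 and 217 CPM in FF with PCN. The dMye libraries ran from 162 through a median of 172 to 186 CPM with DMSO and from 171 through 187 to 214 CPM with PCN. All dMye libraries lay below the FF libraries of the same agent, as was so for 9.74% of tested genes with DMSO and 11.5% with PCN.

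Cul3 fell in dMye by 0.19 on the log2 scale with DMSO (SE 0.07, edgeR adjusted p = 0.043) and by 0.29 with PCN (SE 0.06, edgeR adjusted p = 0.002). It rose by 0.23 with PCN in FF (SE 0.08, edgeR adjusted p = 0.046), and the value in dMye was 0.13 (SE 0.05, edgeR adjusted p = 0.23). The 2 PCN effects differed by -0.10 (95% interval -0.28 to 0.08, edgeR adjusted p = 0.74). The call for genotype with DMSO was lost in 6 of 18 fits that left out 1 library, with adjusted p up to 0.16, and the call for PCN in FF in 13 of 18, with adjusted p up to 0.30. The call for genotype with PCN held in all 18.

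**Figure D3:**
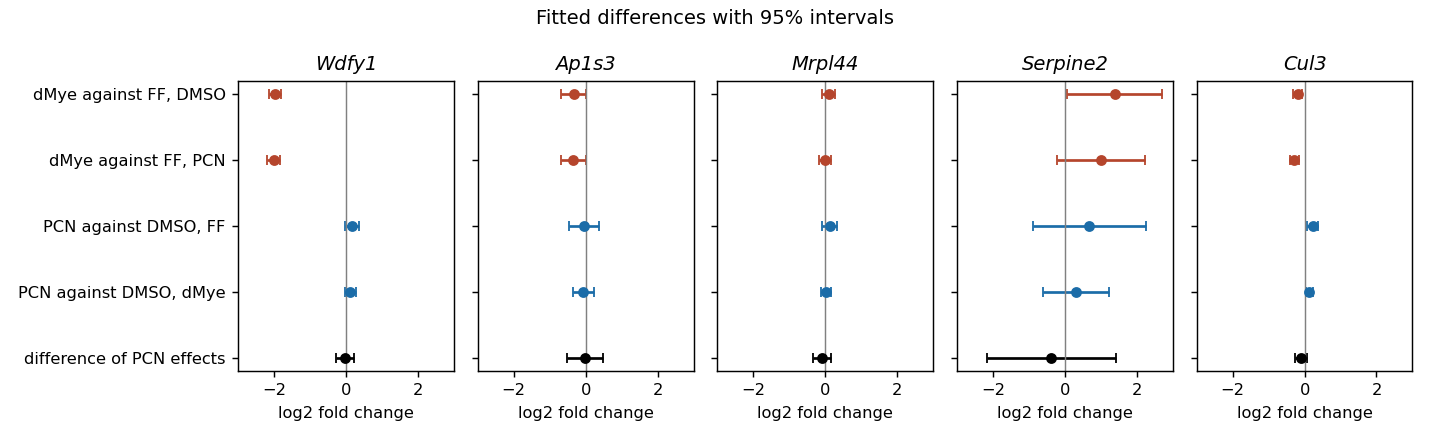
Fitted log2 fold changes of the 5 tested genes in the 5 comparisons (horizontal axis), with 95% intervals as whiskers. Wdfy1 sits at -1.97 and -2.01 in the 2 genotype comparisons, while the intervals of Mrpl44 and Ap1s3 there reach or cross 0 and those of Cul3 lie just below it.

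Within 5 Mb either side of Wdfy1, 39 other genes were tested of 67 in the table. With DMSO, 9 of the 39 differed between genotypes (23.1%), 4 lower and 5 higher in dMye, against 21.8% of all tested genes, 7.85% lower and 13.9% higher. With PCN, 15 of the 39 differed (38.5%), 8 lower and 7 higher, against 27.6% of all tested genes, 11.4% lower and 16.2% higher. The median log2 difference of the 39 was 0.01 with DMSO and -0.02 with PCN, against 0.02 and 0.00 over all tested genes. None of them was called lower by more than 1 on the log2 scale under either agent.

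In both genotype comparisons 8 of the 39 were called, against 14.6% of all tested genes. Des, Speg, Chpf and Obsl1 were higher in dMye under both agents. Des, which encodes the muscle filament protein desmin, was at 2.10 ± 0.713 CPM in FF and 6.12 ± 0.98 in dMye with DMSO (SD, n = 3 and 6), a rise of 1.55 (edgeR adjusted p = 1.2e-06). Chpf, for a chondroitin polymerizing factor, rose by 0.62 with DMSO and 0.75 with PCN (edgeR adjusted p = 0.00066 and 7.2e-05). Speg rose by 0.50 and 0.70 (edgeR adjusted p = 0.021 and 0.0017), and Obsl1, at 0.256 CPM in FF with DMSO, by 2.30 and 2.38 (edgeR adjusted p = 0.012 and 0.015). With 1 library left out the calls of Des and Chpf held, that of Speg with DMSO was lost in 3 of 18 fits (adjusted p up to 0.084), and those of Obsl1 in 2 of 18 under each agent, with values from 1.69 to 4.88 with DMSO. These 4 genes have starts from -4.416 to -4.27 Mb relative to that of Wdfy1, but they are not an unbroken run. Gmppa and Tmem198, named here after their values were seen, start within the same stretch and were not called. Gmppa was at -0.02 with DMSO and -0.01 with PCN (edgeR adjusted p = 0.80 and 0.88). Tmem198 was at 0.36 and 0.14 (edgeR adjusted p = 0.64 and 0.87).

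Stk11ip, Cul3 and Dock10 were lower in dMye under both agents. Stk11ip fell by 0.28 with DMSO and by 0.20 with PCN (edgeR adjusted p = 0.003 and 0.024), the latter call being lost in 3 of 18 fits without 1 library (adjusted p up to 0.12). Dock10, a guanine nucleotide exchange factor named here after its values were seen, fell by 0.22 and by 0.21 (edgeR adjusted p = 0.042 and 0.044), and these calls were lost in 8 and 14 of 18 fits without 1 library (adjusted p up to 0.16 and 0.24). Pid1 fell by 0.34 with DMSO and rose by 0.19 with PCN in dMye against FF (edgeR adjusted p = 0.00037 and 0.034). The call with PCN was lost in 5 of 18 fits without 1 library (adjusted p up to 0.15). Its PCN effects differed between genotypes by 0.53 (edgeR adjusted p = 0.0056). In dMye against FF with PCN, Retreg2 fell by 0.23 (edgeR adjusted p = 0.00071) and Rhbdd1 by 0.21 (edgeR adjusted p = 0.002), while with DMSO their values were -0.05 and 0.02 (edgeR adjusted p = 0.46 and 0.81). The difference between the agents was not called for either gene (edgeR adjusted p = 0.21 and 0.10).

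**Figure D4:**
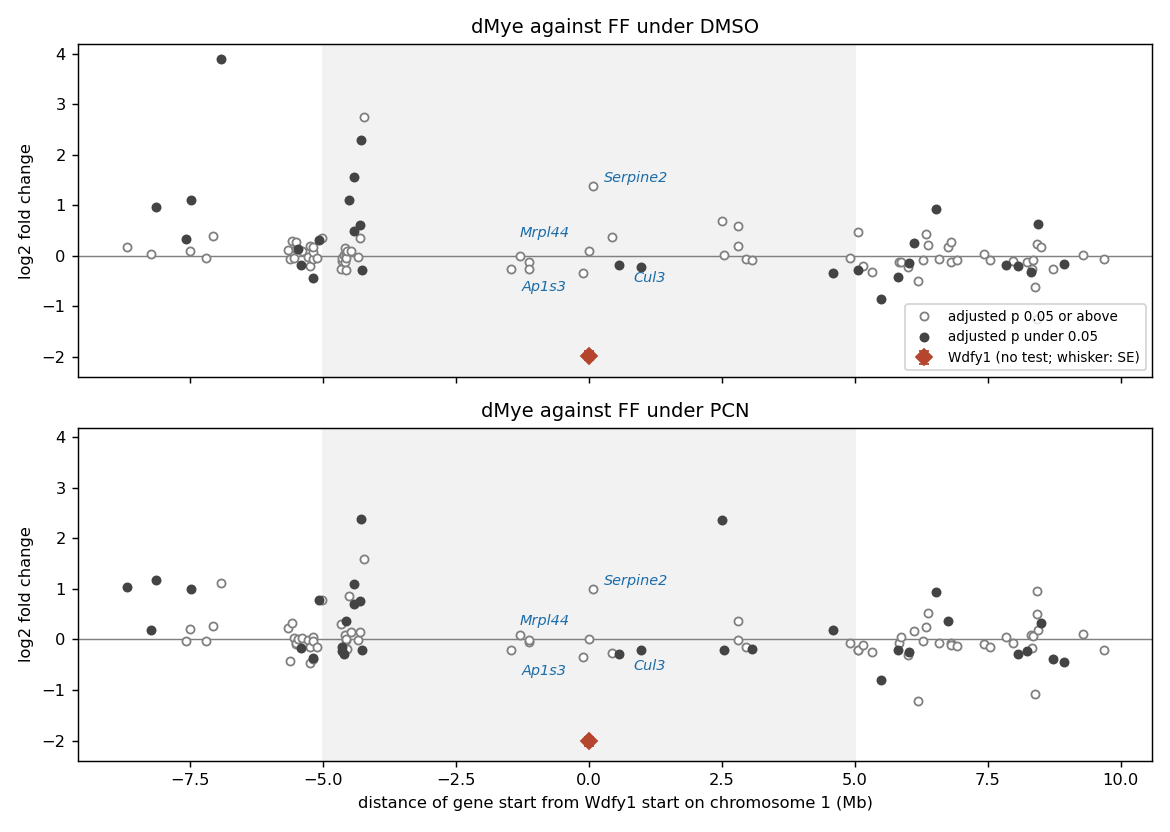
Fitted log2 fold change of dMye against FF for tested genes within 10 Mb of Wdfy1 (vertical axis) by distance of their starts in Mb (horizontal axis), with DMSO above and PCN below; filled points have an adjusted p under 0.05, the band marks 5 Mb either side and the diamond is Wdfy1. Wdfy1 at -1.97 and -2.01 lies below every filled point in both panels.

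PCN called 5 of the 39 neighbours in FF, 1 lower and 4 higher, against 13.8% of all tested genes, and 1 in dMye, against 2.08%. The difference between the PCN effects was called for 1, Pid1, against 1.42%. Over the 18 libraries the genes whose log2 CPM was most like that of Wdfy1 were Itgb7 (Pearson r = 0.984), Uty (0.983), Ddx3y (0.968), Smox (0.965), Kdm5d (0.96) and BC005537 (0.959), and the least like were Dcn (-0.991), Prss23 (-0.989) and Krt19 (-0.988). None of these 9 lies on chromosome 1. Among the neighbours, r was 0.686 for Cul3, 0.481 for Ap1s3, -0.174 for Mrpl44 and -0.579 for Serpine2. The libraries fall into 2 genotype clusters, which all of these values share. After the genotype means were removed r was 0.665 for Itgb7, 0.397 for BC005537, 0.314 for Smox, 0.183 for Ddx3y, 0.135 for Uty, -0.108 for Kdm5d, -0.566 for Dcn, -0.505 for Prss23 and -0.458 for Krt19. For the neighbours it was then 0.147 for Cul3, -0.265 for Ap1s3, 0.067 for Mrpl44 and -0.029 for Serpine2.

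Other transcripts moved with genotype beside Wdfy1. The summed level of the 4 Y-linked genes in the table was 113 to 139 CPM in FF and 0.451 to 1.49 CPM in dMye, so sex and genotype cannot be told apart here. Mesothelial markers summed to 14.1 to 20.6 CPM in FF and 92.0 to 121 CPM in dMye, and fibroblast markers to 140 to 174 CPM and 552 to 702 CPM, with 6 of 6 of each list higher in dMye under both agents. Over all tested genes 13.9% were called higher and 7.85% lower with DMSO, and 16.2% and 11.4% with PCN. Markers of resident large peritoneal macrophages summed to 8.38 to 14.2 CPM in FF and 22.8 to 30.3 CPM in dMye. With DMSO, B cell markers summed to 16.2 to 21.6 CPM in FF and 5.18 to 7.72 CPM in dMye, with 5 of 6 lower. Neutrophil markers summed to 159 to 164 CPM and 107 to 122 CPM, with 3 of 6 lower. Most of that sum was Csf3r, at 123 CPM in FF and 94.6 in dMye. S100a8 (2.09 and 2.46) and Mmp9 (4.21 and 4.91) had higher means in dMye. With PCN, B cell sums overlapped, at 7.53 to 11.3 CPM in FF and 5.01 to 8.45 in dMye, with 2 of 6 lower. Neutrophil sums were then 124 to 132 and 103 to 119 CPM, with 1 of 6 lower. Their part in the values of Wdfy1 and its neighbours was not tested. In bulk samples fewer cells of a type and less RNA per cell cannot be told apart.

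Of 10 listed genes known to vary between C57BL/6 substrains or colonies, 6 were tested. Fgfbp3 rose by 0.40 and Dock2 fell by 0.23 in dMye with DMSO (edgeR adjusted p = 0.032 and 0.02). With PCN their values were -0.11 and 0.00 (edgeR adjusted p = 0.55 and 0.98). The difference between the agents was not called for either gene (edgeR adjusted p = 0.19 and 0.31). With 1 library left out the call of Fgfbp3 was lost in 5 of 18 fits (adjusted p up to 0.18) and that of Dock2 in 2. In dMye against FF, Entpd4 was higher by 0.29 with PCN (edgeR adjusted p = 0.0052) and was at 0.18 with DMSO (edgeR adjusted p = 0.091). Nnt, the nicotinamide nucleotide transhydrogenase gene, was at -0.18 and 0.09 on the log2 scale (edgeR adjusted p = 0.48 and 0.76). Whether the genotypes differ in substrain was not tested.

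Among listed genes that share a role with Wdfy1, fitted differences were mixed in size. Of 21 other WDFY, FYVE and PI3P genes, 5 were lower and 0 higher in dMye with DMSO, and 4 lower and 0 higher with PCN, with medians of -0.14 and -0.12 on the log2 scale and a lowest value of -1.17, that of the scarce Fgd2 with DMSO, named after its value was seen (edgeR adjusted p = 0.14). Over all tested genes 7.85% were lower and 13.9% higher with DMSO, and 11.4% lower and 16.2% higher with PCN. In either direction the shares were 21.8% and 27.6%. Leaving out library 3 of FF with DMSO reduced the first count to 1, and leaving out library 2 of FF with PCN reduced the second to 1. The related Wdfy2 and Wdfy4 fell by 0.24 and by 0.40 with DMSO (edgeR adjusted p = 0.011 and 0.015). With PCN their values were -0.04 and -0.12 (edgeR adjusted p = 0.67 and 0.50). For neither gene was the difference between the agents called (edgeR adjusted p = 0.38 and 0.49). Wdfy3, for the autophagy scaffold ALFY, was at -0.21 and -0.15 (edgeR adjusted p = 0.51 and 0.65). In dMye against FF, Pik3r4, a subunit of the lipid kinase that makes PI3P, was lower by 0.35 with DMSO (edgeR adjusted p = 0.0079). Rab5a, a GTPase of early endosomes, was lower by 0.19 between the genotypes with PCN (edgeR adjusted p = 0.0015).

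Of 13 tested genes of TLR3 and TLR4 signalling through TRIF, 2 were higher and 2 lower in dMye with DMSO, and 4 higher and 5 lower with PCN, against 21.8% and 27.6% of all tested genes in either direction. Without library 3 of FF with DMSO the 4 calls with DMSO became 2. Ticam1, which encodes TRIF, was at -0.03 in dMye against FF with DMSO (edgeR adjusted p = 0.81) and at -0.29 with PCN (edgeR adjusted p = 0.0035). From DMSO to PCN it rose by 0.41 in FF (edgeR adjusted p = 0.0018) and was at 0.15 in dMye (edgeR adjusted p = 0.23). The PCN effect on Ticam1 in dMye minus that in FF, -0.27, was not called (edgeR adjusted p = 0.24). Tlr3 in dMye against FF was at 0.28 with DMSO (edgeR adjusted p = 0.36) and 1.09 with PCN (edgeR adjusted p = 0.0011). Its levels were low, at 2.38 ± 0.383 CPM in FF with DMSO and 1.19 ± 0.287 in FF with PCN (SD, n = 3 each). In dMye they were 2.89 ± 0.461 and 2.55 ± 0.574 CPM (SD, n = 6 each). From DMSO to PCN it fell by 1.00 in FF (edgeR adjusted p = 0.011) and was at -0.19 in dMye (edgeR adjusted p = 0.64). The difference between these PCN effects was not called (edgeR adjusted p = 0.22). Between the genotypes Tlr4 was at -0.10 with DMSO and -0.02 with PCN (edgeR adjusted p = 0.16 and 0.84). The kinase gene Ikbke rose by 0.44 and by 0.84 (edgeR adjusted p = 9.9e-05 and 2.4e-08), and Traf6 fell by 0.19 and by 0.29 (edgeR adjusted p = 0.029 and 0.00087).

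The partners of the neighbours showed few or mixed calls. Of 48 other genes of the mitochondrial large ribosomal subunit, 1 was higher and 1 lower with DMSO, and 0 higher and 2 lower with PCN, and with 1 library left out the calls ran from 0 to 4 and from 0 to 2. Of 10 genes of the AP-1 adaptor and its recruitment, 0 were higher and 2 lower with DMSO, and 2 higher and 1 lower with PCN, and with 1 library left out the calls ran from 0 to 3 and from 2 to 5. Arfgef1, for an exchange factor that activates ARF GTPases, fell by 0.34 and by 0.35 (edgeR adjusted p = 0.0085 and 0.0051). Of 25 cullins and CUL3 partners, 5 were higher and 3 lower with DMSO, and 3 higher and 5 lower with PCN, and with 1 library left out the calls ran from 3 to 9 and from 5 to 9. These counts stand beside 21.8% of all tested genes called with DMSO and 27.6% with PCN. The lowest counts with DMSO came without library 2 of FF with DMSO for the ribosome and cullin lists, and also library 2 of dMye with DMSO for the ribosome, and without library 3 of FF with DMSO for the adaptor list. Klhl21, a CUL3 substrate adaptor, fell by 0.18 and by 0.36 (edgeR adjusted p = 0.012 and 1.1e-05).

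Of 10 tested genes of the plasminogen system, 3 were higher and 1 lower with DMSO, and 5 higher and 2 lower with PCN, against 21.8% and 27.6% of all tested genes in either direction. Without library 2 of FF with PCN the 7 calls with PCN became 4. Plat, for tissue plasminogen activator, rose by 2.35 and by 2.01 (edgeR adjusted p = 4.3e-08 and 2.6e-07). Plau, for urokinase, was at -0.10 in dMye against FF with DMSO (edgeR adjusted p = 0.26). Between the genotypes with PCN it was at -0.47 (edgeR adjusted p = 2.4e-06). The mesothelial and fibroblast sums given above moved in the same direction as Plat, and their part was not tested. Of 8 granin and granule genes 1 was tested, Cpe, for a carboxypeptidase of granules, which rose by 1.39 and by 1.46 (edgeR adjusted p = 2.6e-12 and 1.2e-12).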

How the data were processed

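Per gene and library, the authors deposited expected counts, which are estimates and can be fractional. Build mm10 is named in the submitters' processing notes. No aligner, quantifier, annotation or strand setting is given in the sources used here, so reads from the overlapping starts of Wdfy1 and Mrpl44 may not be separable. Counts were rounded, filtered with filterByExpr and scaled by TMM. One quasi-likelihood fit in edgeR 4.0.16 (R 4.3.3) covered 18 libraries, 4 groups and 5 comparisons, with Benjamini-Hochberg adjustment over 13409 genes and a threshold of 0.05; it was checked on simulated data. Each SE was the size of the fitted log2 difference divided by the square root of the test's F statistic. Each 95% interval was 1.96 such SEs either side, with no adjustment for the number of genes tested. No replicate pair agreed within sampling noise (chi-square per gene 3.72 to 44.4), so none were merged. Alternatives were other scalings and filters, DESeq2 1.42.0, limma-voom (limma 3.58.1), only the groups compared, leaving out each library, and windows of 2 and 10 Mb; leaving out libraries 5 and 6 of dMye with DMSO together was chosen after seeing the data. The members and lists were chosen with earlier results of these data known. Genes were named by a rule: the members, called genes within 5 Mb (at most 6 by smallest p per genotype comparison), the 6 most and 3 least like Wdfy1, up to 3 called members per list and a few fixed genes. Symbols were matched to the annotation for 98.8% of rows. Xist, listed among the sex-linked markers, had no row in the authors' table and so was not analysed here.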

Additional observations from a re-analysis of the deposited data

Results flagged for a closer look

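Among 139 sets of 6 dMye libraries, 1 per named gene and agent, 15 had a library set apart from the other 5 by Dixon's test at the 95% level. Its chance rate of about 1 in 20 assumes independent sets without tied values. These sets share libraries, and those of Scg2 and Ddx3y have a median of 0, so the count of 15 cannot be set against that rate. Library 5 of dMye with DMSO was the one set apart for 9 genes. It was lowest for Eea1 (149 CPM, group median 176), Uvrag (57, median 69.5), Traf6 (63.0, median 73.7), Ap1g1 (94.0, median 110) and Dock2 (234, median 276), and highest for Ap1s1 (81.0, median 62.8), Plaur (173, median 140), Anxa2 (691, median 553) and Lyz2 (5533, median 3781). Library 4 of that group was highest for Tbk1 (96.3 CPM, median 90.0) and Ap1s2 (79.1, median 70.0), and library 2 for Ddx3y (0.0986 CPM, median 0). In dMye with PCN, library 1 was highest for Chpf (10.7 CPM, median 9.66) library 2 for Klhl13 (0.786, median 0.345) and library 6 for Scg2 (0.0884 CPM, from 2 reads, median 0). No such library was found for Wdfy1, Ap1s3, Mrpl44, Serpine2 or Cul3.

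The PCN effect differed between genotypes for Pid1, by 0.53 on the log2 scale (edgeR adjusted p = 0.0056): it fell by 0.63 with PCN in FF (edgeR adjusted p = 6.6e-06) and was at -0.10 in dMye (edgeR adjusted p = 0.41). It differed for Plau by -0.37 (edgeR adjusted p = 0.031), which rose by 0.59 in FF (edgeR adjusted p = 6.6e-06) and by 0.21 in dMye (edgeR adjusted p = 0.028). With 1 library left out the difference for Plau lost its call in 10 of 18 fits (adjusted p up to 0.14) and the rise in dMye in 6 of 18 (up to 0.085), while the difference for Pid1 kept its call in all 18.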

How the results depend on the processing

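The fall of Wdfy1 in dMye lay between -2.04 and -1.93 on the log2 scale with DMSO and between -2.04 and -1.96 with PCN over all 27 alternatives each. The calls of Cul3 depended on the setting. With DMSO its genotype difference was -0.15 with upper-quartile scaling (edgeR adjusted p = 0.10), -0.16 with library totals only (0.075) and -0.16 without libraries 5 and 6 of dMye with DMSO (0.09). Its PCN difference in FF was 0.22 with RLE size factors (0.054), 0.19 with upper-quartile scaling (0.085), 0.21 with library totals only (0.065), 0.21 with no filter (0.073) and 0.23 with limma-voom (0.053). With 1 library left out these 2 values ran from -0.23 to -0.17 and from 0.14 to 0.26.

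Counts of called neighbours within 5 Mb changed with the window and the fit. Within 2 Mb they were 2, 2, 1, 0 and 0 for genotype with DMSO, genotype with PCN, PCN in FF, PCN in dMye and the difference of the PCN effects, and within 10 Mb 29, 32, 17, 4 and 3. Within 5 Mb the count for PCN in FF was 3 with upper-quartile scaling, 3 with library totals only and 3 with no filter. For PCN in dMye it was 0 with no filter, 3 with DESeq2, 0 with only the groups compared and 0 without libraries 5 and 6 of dMye with DMSO. With 1 library left out the 5 counts ran from 5 to 9, from 7 to 15, from 2 to 6, from 0 to 2 and from 1 to 2. Without any single FF library with DMSO the first was 5, and without library 2 of FF with PCN the second was 7.

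Directions changed only for differences that were not called. The difference of PCN effects on Ap1s3 was 0.00 with upper-quartile scaling and 0.01 with library totals only, no filter or limma-voom. Mrpl44 in dMye against FF with PCN was 0.05 with upper-quartile scaling or library totals only, 0.00 with no filter, and 0.01 with limma-voom or only the groups compared. Rhbdd1 with DMSO was -0.00 with RLE size factors, no filter or DESeq2. Wdfy2 with PCN was 0.01 with upper-quartile scaling or library totals only, Ticam1 with DMSO was 0.01 with upper-quartile scaling, and Tlr4 with PCN was 0.04 with upper-quartile scaling and 0.03 with library totals only.

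With 1 library left out, the difference of PCN effects ran from -0.08 to 0.03 for Wdfy1, from -0.17 to 0.17 for Ap1s3, from -0.16 to 0.07 for Mrpl44 and from -1.04 to 0.87 for Serpine2. PCN in FF ran from -0.23 to 0.10 for Ap1s3, from -0.03 to 0.19 for Mrpl44 and from -0.57 to 1.34 for Serpine2, and PCN in dMye from -0.15 to 0.03 for Ap1s3. The genotype difference ran from -0.02 to 0.15 with DMSO and from -0.07 to 0.14 with PCN for Mrpl44, and from 0.55 to 2.23 with PCN for Serpine2. With DMSO it ran from -0.01 to 0.03 for Rhbdd1, from -0.07 to 0.01 for Ticam1 and from -0.35 to 0.12 for Nnt, and with PCN from -0.04 to 0.00 for Tlr4. Without 1 FF library of the agent, calls were also lost with DMSO for Pik3r4 (without library 1, adjusted p = 0.051), Wdfy2 (3, 0.059), Wdfy4 (2 and 3, up to 0.069), Traf6 (1 and 3, 0.087 each), Arfgef1 (3, 0.07) and Klhl21 (2, 0.082), and with PCN for Arfgef1 (2, 0.065). The cause of these changes was not tested. Low counts limit Serpine2 and Scg2. No paired analysis was possible because the labels give no replicate numbers that pair libraries across groups.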
